A study of Mus musculus with 2 samples.

Results

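Transcripts of 10 genes that build and load MHC class I molecules were compared between 2 single-cell libraries of interstitial cells from infarcted mouse ventricles, 1 library per genotype. The genes were chosen by name for their role (B2m, H2-D1, H2-K1, H2-Q4, H2-Q6, H2-Q7, H2-T23, Tap1, Tap2 and Tapbp), and their rows were read from the authors' comparisons for 18 clusters and 4 subclusters of the fibroblast cluster, 22 tables that together hold 15181 genes. The 4 subcluster tables hold all 10 genes (40 rows), whereas the 18 cluster tables list them 56 times, 6 times in the fibroblast cluster (cluster 5) and 50 times in the 17 other clusters.

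Control mice were PostnMCM, which express a tamoxifen-inducible Cre recombinase (MerCreMer) from the Postn locus, a gene switched on in fibroblasts that become myofibroblasts after injury. The other genotype was Yapfl/fl;Wwtr1fl/+;PostnMCM, in which the same Cre meets floxed Yap1 on both chromosomes and floxed Wwtr1 (the gene of TAZ) on 1 of the pair. According to the study's methods both lines carried the R26-eGFP reporter. All mice were adults with a surgical myocardial infarction (MI), ate chow containing tamoxifen citrate at 0.4 g/kg from the operation on, and per the labels were sampled on day 6, whereas the study's methods name the day after. The ventricles were digested and viable cells were sorted and captured with 10x Chromium 3′ chemistry. The labels give no strain, sex or number of hearts per library. Since Cre follows Postn, immune cells in these libraries are neighbours of the targeted cells and not the cells aimed at.

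MHC class I molecules carry peptides from inside the cell to its surface, where CD8 T cells and natural killer (NK) cells inspect them. Each consists of a heavy chain, encoded by the H2 genes in the mouse, and the invariant light chain beta-2 microglobulin. The proteasome and its interferon-induced form cut proteins to peptides, the TAP transporter moves peptides into the endoplasmic reticulum, and tapasin with calreticulin and ERp57 fits them into the groove. Nearly all nucleated cells make class I molecules, leukocytes more than most stromal cells, and interferons raise the whole set, with IRF1 and NLRC5 among the factors involved.

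For every gene the tables give 2 kinds of value: the share of cells in which its corrected count exceeded 0, library by library, and a log2 fold change. The latter is the log2 of the mean corrected count plus 1 in the library from Yapfl/fl;Wwtr1fl/+;PostnMCM hearts minus the same quantity in control cells, so positive values are higher in the former. All values are the authors' own, as deposited. The cluster tables hold only genes with a log2 fold change of at least 0.25 in size and a share of at least 25% in either library, and a gene that a cluster table omits has no value there. The subcluster tables carry no such limits. There was 1 library per genotype and no replicate, so no value carries an error, no test was possible, and every statement describes these 2 libraries. "Higher" and "lower" mean at least 0.25 in size unless a smaller value is printed. How many cells stand behind a share in each cluster and library is not in the tables, and cell barcodes were not analysed here. How coarse the shares are can be read from the smallest share above 0 among all genes of a table. In the control library it was 0.7%, 3.3%, 2.5% and 4.3% in subclusters 0, 3, 4 and 5, and in the other library 3.1%, 4.3%, 10% and 4.8%. In cluster 10 it was 9.1% of control cells and 0.5% of cells of the other library.

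The targeted genes were not lower throughout in the second library. Yap1 was at 0.07, 0.31, 0.04 and 0.26 (log2 fold change) in subclusters 0, 3, 4 and 5, and Wwtr1 at 0.15, -0.30, -0.21 and -0.16, while Postn was at 0.43, 0.19, -0.15 and 1.0, and no cluster table lists any of the 3 genes. Counting at the 3′ end need not register the loss of a floxed exon. For this reason the second library is named by its label, as labelled Yap/Wwtr1-depleted or, for short, labelled depleted. The fibroblast identity of cluster 5 held: all 4 subclusters counted Col1a1, Col1a2, Col3a1 and Dcn in 100% of cells of both libraries. Transcripts of leukocytes were present in fibroblasts too, and their values stand beside the results below. Other cluster names follow the study, and cluster 16 and subclusters 1 and 2 were not analysed here.

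In fibroblasts 6 of the 10 class I genes were listed, all 6 higher in the library labelled depleted, whereas 43.3% of all 605 genes listed in cluster 5 were higher. These were B2m, both classical heavy chain genes and the non-classical H2-Q4, H2-Q6 and H2-T23. H2-Q7 and the peptide transport and loading genes Tap1, Tap2 and Tapbp were not listed in cluster 5. The median of the 6 values was 0.51, beside -0.27 for all genes listed there. The study describes the libraries as unevenly spread over the fibroblast subclusters, with subclusters 0, 2 and 4 mainly of control cells and subcluster 1 mainly of the other genotype. Cluster 5 thus compares cells that lie largely in different subclusters, and a change in the mix of fibroblasts and a change in level cannot be told apart in its values.

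B2m, which encodes the light chain shared by all class I molecules, was counted in 98.3% of control fibroblasts and 98.9% of fibroblasts of the library labelled depleted, with a log2 fold change of 0.88. Its share was near the ceiling in both libraries, so the difference lay in counts per cell and hardly in the share. H2-K1, a classical heavy chain that presents peptides to CD8 T cells, was counted in 86.9% of control and 92.5% of labelled depleted fibroblasts at a log2 fold change of 0.84. H2-D1, the other classical heavy chain, was counted in 90.6% and 94.7% at 0.57. The non-classical genes differed more in the share of cells. H2-Q4 was counted in 32.9% of control fibroblasts and in 56.1% of those labelled depleted, at 0.40. H2-Q6 was counted in 6% and 29.4% at 0.45, the widest gap in shares among the 6 genes on a log2 scale (2.29). H2-T23, which encodes Qa-1, a ligand of the CD94/NKG2 receptors of NK cells, was counted in 32.9% and 52.9% at 0.37.

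**Figure D1:**
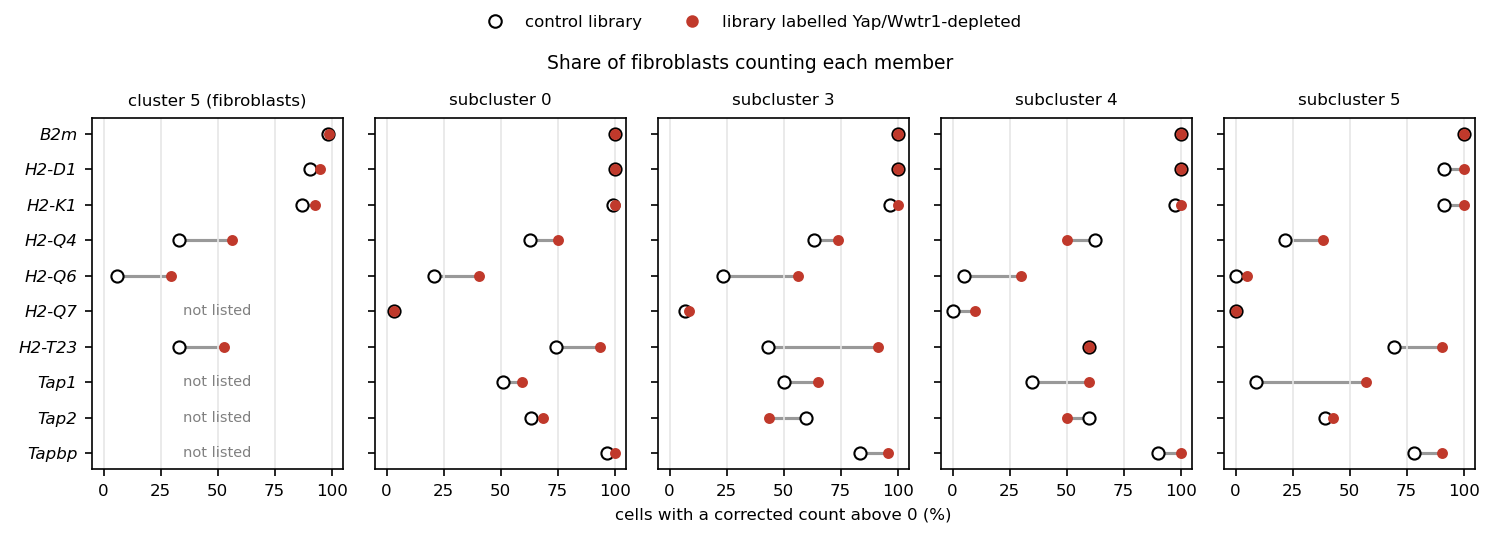
Share of fibroblasts (x axis, percent of cells with a corrected count above 0) for each class I gene in cluster 5 and in its 4 subclusters, with open circles for the control library, red points for the library labelled depleted and 1 value per library. In cluster 5 all 6 listed genes lie to the right of the control value, most widely for H2-Q6 (6% and 29.4%) and H2-Q4 (32.9% and 56.1%), while B2m stands near 100% in both. In the subclusters the exceptions with the red point on the left are H2-Q4 in subcluster 4, Tap2 in subclusters 3 and 4, and H2-Q7 in subcluster 0.

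The heavy chain genes lie together on mouse chromosome 17 and B2m on chromosome 2. In GRCm39 coordinates B2m spans chr2:121977957-121983594, H2-K1 chr17:34214987-34219321, H2-D1 chr17:35481691-35486475, H2-Q4 chr17:35598586-35604274, H2-Q6 chr17:35643777-35655332, H2-Q7 chr17:35658131-35662749 and H2-T23 chr17:36340229-36345571, with Tap1 (chr17:34405996-34416199), Tap2 (chr17:34422501-34435829) and Tapbp (chr17:34134873-34148267) on the same chromosome. Promoters of 9 of the 10 genes (all but Tap2) were found in RefSeq's table (GRCm38.p6), each reaching from 250 bases before the start to 50 after it. Because several of these genes were higher together in fibroblasts, their promoters were searched on both strands for letters of known inducible elements. An NF-kappaB consensus was found in 6 of the 9, and in 8.46% of all 32851 promoters of the table. An interferon-stimulated response element (ISRE) core, GAAANNGAA, was found in 2 of the 9 (B2m and H2-T23), beside 8.56% of all promoters. A second spelling of that core, GAANNGAAA, which was added after the first results were seen, was found in 5 of the 9 and 7.52% of all. The gamma-activated site TTCNNNGAA was found in none of the 9 and in 8.30% of all promoters. A match of letters is a description only, and 5 of these promoters belong to close copies of one another. The stretches below, read in the direction of transcription, show the shared layout, with the NF-kappaB match and the ISRE core in capitals. Each was located in GRCm39 by an exact match of the RefSeq promoter, and those of H2-Q6 and H2-Q7 matched at 2 places each, of which the one at the gene itself is given.
B2m (chr2:121978023-121978057, plus strand): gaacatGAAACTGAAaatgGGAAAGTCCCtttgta
H2-K1 (chr17:34219397-34219438, minus strand): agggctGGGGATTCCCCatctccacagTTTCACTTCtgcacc
H2-D1 (chr17:35481893-35481934, plus strand): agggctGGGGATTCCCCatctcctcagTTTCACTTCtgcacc
H2-Q4 (chr17:35598413-35598454, plus strand): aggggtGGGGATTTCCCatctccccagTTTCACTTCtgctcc
H2-Q6 (chr17:35643647-35643688, plus strand): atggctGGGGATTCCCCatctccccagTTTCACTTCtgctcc
H2-Q7 (chr17:35657992-35658032, plus strand): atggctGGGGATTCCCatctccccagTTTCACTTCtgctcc
H2-T23 (chr17:36343702-36343722, minus strand): actgctTTCTCTTTCataaag
The heavy chain genes other than H2-T23 carry the NF-kappaB match ahead of the ISRE core, and in B2m the order is reversed. In the heavy chain genes the core lies on the other strand, so that it appears here as its reverse complement. H2-Q7, whose stretch differs little from that of H2-Q6, was counted in at most 10% of fibroblasts of any subcluster in either library, so promoters with these letters belonged both to genes that were higher and to 1 that was hardly counted.

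The subclusters, which list all 10 genes, showed how far the difference reached. Of the 10 genes, 7, 6, 8 and 6 were higher by at least 0.25 in subclusters 0, 3, 4 and 5, and in no subcluster was a gene lower by that much. Among all 15059 genes the percent higher by at least 0.25 was 7.61, 9.13, 17 and 12.6, and the percent lower was 6.37, 9.68, 13.3 and 14.7. Class I genes are counted in more cells than most genes. Among genes that either library counted in at least 25% of cells, which include 9, 9, 9 and 8 of the 10, the percent higher was 12.5, 13.8, 25.2 and 20.3. The median log2 fold change of the 10 genes was 0.55, 0.83, 0.43 and 0.50, with medians of all genes at 0.00 in each.

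**Figure D2:**
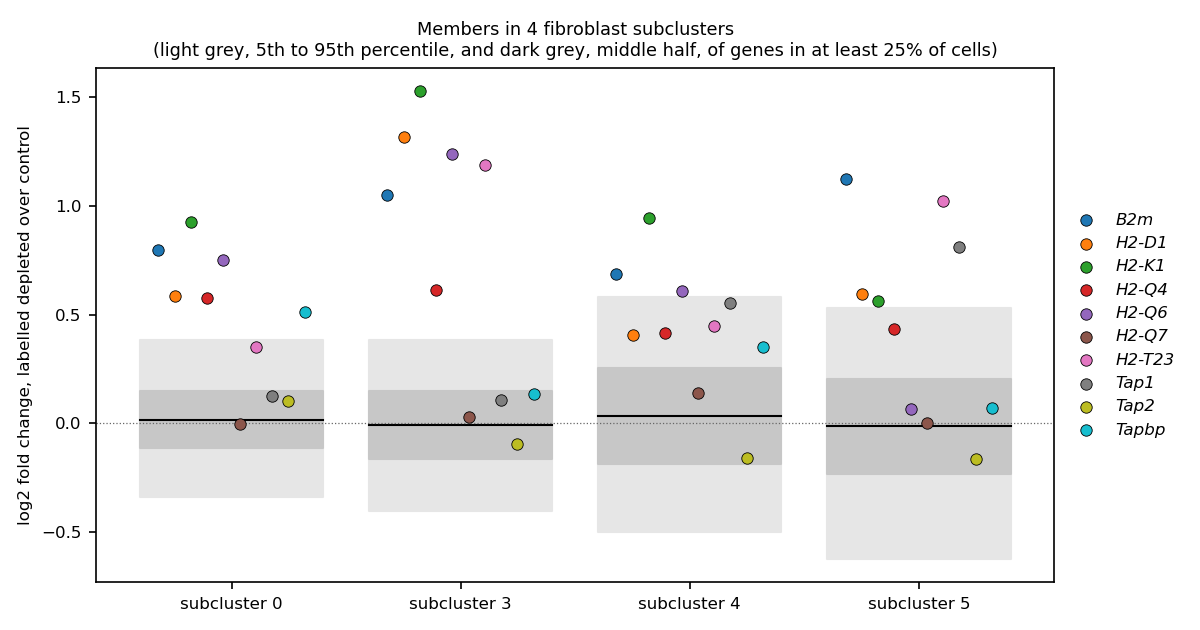
Log2 fold change (y axis, labelled depleted over control) of the 10 class I genes in fibroblast subclusters 0, 3, 4 and 5, 1 point per gene. The light band spans the 5th to 95th percentile of genes in at least 25% of cells, the dark band the 25th to 75th, and the line is their median. B2m and H2-K1 lie above the light band in all 4 subclusters (its upper edge is 0.39, 0.38, 0.58 and 0.53), whereas H2-Q7 and Tap2 lie inside it throughout.

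Light chain transcript was higher in each subcluster. B2m was at 0.80, 1.05, 0.69 and 1.12 in subclusters 0, 3, 4 and 5, with a share of 100% in both libraries everywhere. The ceiling in shares means that every one of these cells counted B2m and that the gap was one of counts per cell.

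The classical heavy chain genes were likewise higher in all 4. H2-K1 was at 0.93, 1.53, 0.94 and 0.56 in subclusters 0, 3, 4 and 5, with shares of 99.3%, 96.7%, 97.5% and 91.3% of control cells and 100% of labelled depleted cells in each. H2-D1 was at 0.58, 1.32, 0.41 and 0.59, with 100% in both libraries except in subcluster 5, where 91.3% of control cells counted it. Subcluster 3 had the highest value of both genes, and subcluster 5 the lowest of H2-K1 and subcluster 4 the lowest of H2-D1.

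The non-classical genes divided. H2-Q4 was at 0.58, 0.61, 0.42 and 0.43, and its share went from 62.8% of control to 75% of labelled depleted cells in subcluster 0, 63.3% to 73.9% in subcluster 3 and 21.7% to 38.1% in subcluster 5. In subcluster 4 the share ran the other way, 62.5% of control and 50% of labelled depleted cells, so the higher mean there came from fewer counting cells. H2-T23 was at 0.35, 1.19, 0.45 and 1.02, and its share went from 74.5% to 93.8%, from 43.3% to 91.3%, stayed at 60%, and went from 69.6% to 90.5%. H2-Q6, a Qa-2 gene, was at 0.75, 1.24 and 0.61 in subclusters 0, 3 and 4, with shares of 20.7%, 23.3% and 5% of control and 40.6%, 56.5% and 30% of labelled depleted cells. Subcluster 5 stood apart for this gene, with 0% and 4.8% of cells and a value of 0.07. Its neighbour H2-Q7 lay between 0.00 and 0.14, counted in 0% to 6.7% of control and 0% to 10% of labelled depleted cells, too few for a comparison. Reads of such close copies can be divided by the counting. Windows of 90 bases within the last 500 bases of the transcripts were shared with another H2 gene for 5.11% of H2-Q6 (with H2-Q4), 6.08% of H2-Q7 (with H2-Q5) and 1.22% of H2-T23 (with H2-T11-ps). None of the windows in that stretch of H2-D1, H2-K1 and H2-Q4 was shared, but since H2-Q4 holds the windows shared by H2-Q6, counts of these 2 genes are uncertain.

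The transport and loading genes were less uniform. Tap1, one subunit of the peptide transporter, was at 0.13 and 0.11 in subclusters 0 and 3 and higher, at 0.55 and 0.81, in subclusters 4 and 5. Its share went from 51% to 59.4%, 50% to 65.2%, 35% to 60% and 8.7% to 57.1% of cells in subclusters 0, 3, 4 and 5. Every subcluster thus counted Tap1 in more cells of the library labelled depleted, most widely in subcluster 5. Tap2, the other subunit, was at 0.10, -0.10, -0.16 and -0.16 and in 39.1% to 63.4% of control and 42.9% to 68.8% of labelled depleted cells, below the limit of 0.25 in all 4. Tapbp, the gene of tapasin, was at 0.51 and 0.35 in subclusters 0 and 4 and at 0.13 and 0.07 in subclusters 3 and 5. The 2 subunits of one transporter were therefore not at the same value.

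Leukocytes carry much more class I transcript than stromal cells, so markers of leukocytes were read in the same tables. Of 10 leukocyte genes (Ptprc, Lyz2, Cd74, Tyrobp, Fcer1g, Laptm5, Coro1a, Cd52, S100a8 and S100a9), subcluster 0 had 9 lower and 0 higher in the library labelled depleted, and subcluster 4 had 6 lower and 0 higher. Most genes of this list are myeloid, and T cell genes were read separately. In subcluster 3 the list had 6 higher and 2 lower, among them Lyz2 at 1.75, Laptm5 at 0.66 and Ptprc at 0.58, and in subcluster 5 it had 4 higher and 1 lower. The share of cells did not follow these means in subcluster 3, where Lyz2 was counted in 80% of control and 47.8% of labelled depleted cells and Ptprc in 30% and 30.4%. Of 6 T cell genes found, 1, 4, 3 and 3 were higher in subclusters 0, 3, 4 and 5, and 1 was lower, in subcluster 3. Cd3d was counted in 10% of control and 39.1% of labelled depleted cells of subcluster 3, in 7.5% and 20% of subcluster 4 and in 13% and 42.9% of subcluster 5, and Cd8a in 2.8% and 18.8% of subcluster 0 and 2.5% and 30% of subcluster 4. Over the 10 genes and 4 subclusters the control share ran from 13% (Ptprc, subcluster 5) to 97.2% (Cd74, subcluster 0). In the other library it ran from 21.7% to 80%, so none of these 10 genes was at 0. Other leukocyte markers were at 0% in places. In subcluster 5 these included Cd3e and Cd8a in control cells and the macrophage marker Cd68 in labelled depleted cells. Cluster 5 as a whole lists only S100a8 (-1.89) and S100a9 (-2.22) of these genes, both lower. Some leukocyte transcripts were thus higher along with the class I genes in each of the 4 subclusters, and their part in the result was not tested.

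MHC class II genes, which serve antigen-presenting leukocytes, and macrophage markers were read in the same subclusters. Of 7 (H2-Aa, H2-Ab1, H2-Eb1, H2-DMa, H2-DMb1, Cd74 and Ciita) 0 were higher in any of the 4 subclusters, while 4, 3, 4 and 4 were lower in subclusters 0, 3, 4 and 5. H2-Ab1 was at -0.22, -0.48, -0.99 and -0.79, counted in 94.5%, 76.7%, 87.5% and 69.6% of control and 65.6%, 47.8%, 70% and 42.9% of labelled depleted cells. Cluster 5 lists no class II gene. Of 7 macrophage or monocyte markers, 1, 5, 0 and 4 were higher and 4, 0, 3 and 1 lower in subclusters 0, 3, 4 and 5. In subcluster 3 C1qa was at 1.45 (70% to 56.5%) and C1qb at 1.38 (80% to 39.1%), with higher means and lower shares. The part of these genes in the class I values was not tested.

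Other genes of the class I pathway were read from a list of 38, of which 36 are in the subcluster tables (all but H2-Q1 and H2-Q2). Cluster 5 lists 7 of them, 4 higher and 3 lower, beside 43.3% of all genes listed there being higher. The immunoproteasome subunits Psmb8 (0.30, 59.4% of control and 73.3% of labelled depleted fibroblasts) and Psmb9 (0.27, 19.8% and 34.2%) were higher. So were Irf9, a transcription factor of the interferon response (0.28, 23.2% and 40.1%), and the non-classical heavy chain gene H2-T22 (0.27, 45% and 58.8%). The 3 lower genes encode chaperones of the endoplasmic reticulum that also fold many other proteins: Calr (-0.77, 99% and 98.4%), Pdia3, the gene of ERp57 (-0.59, 99.7% and 99.5%), and Canx (-0.28, 95.6% and 92.5%).

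In the subclusters 6, 6, 9 and 10 of the 36 genes were higher and 5, 2, 7 and 7 were lower in subclusters 0, 3, 4 and 5, with medians of 0.03, 0.07, 0.05 and 0.10. Among all genes the percent higher was 7.61, 9.13, 17 and 12.6, the percent lower 6.37, 9.68, 13.3 and 14.7, and the median 0.00 in each. Psmb9 was at 0.43, 0.62, 0.20 and 1.22, and in subcluster 5 it was counted in 4.3% of control and 66.7% of labelled depleted cells. Calr was lower in all 4 (-0.47, -0.53, -0.45 and -1.13) and so was Pdia3 (-0.50, -0.29, -0.41 and -0.60). Nlrc5, the transactivator of class I genes, lay between -0.05 and 0.13 with a count in no more than 10% of cells, and Irf1 had no common direction (-0.37, -0.17, 0.83 and 0.32).

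**Figure D3:**
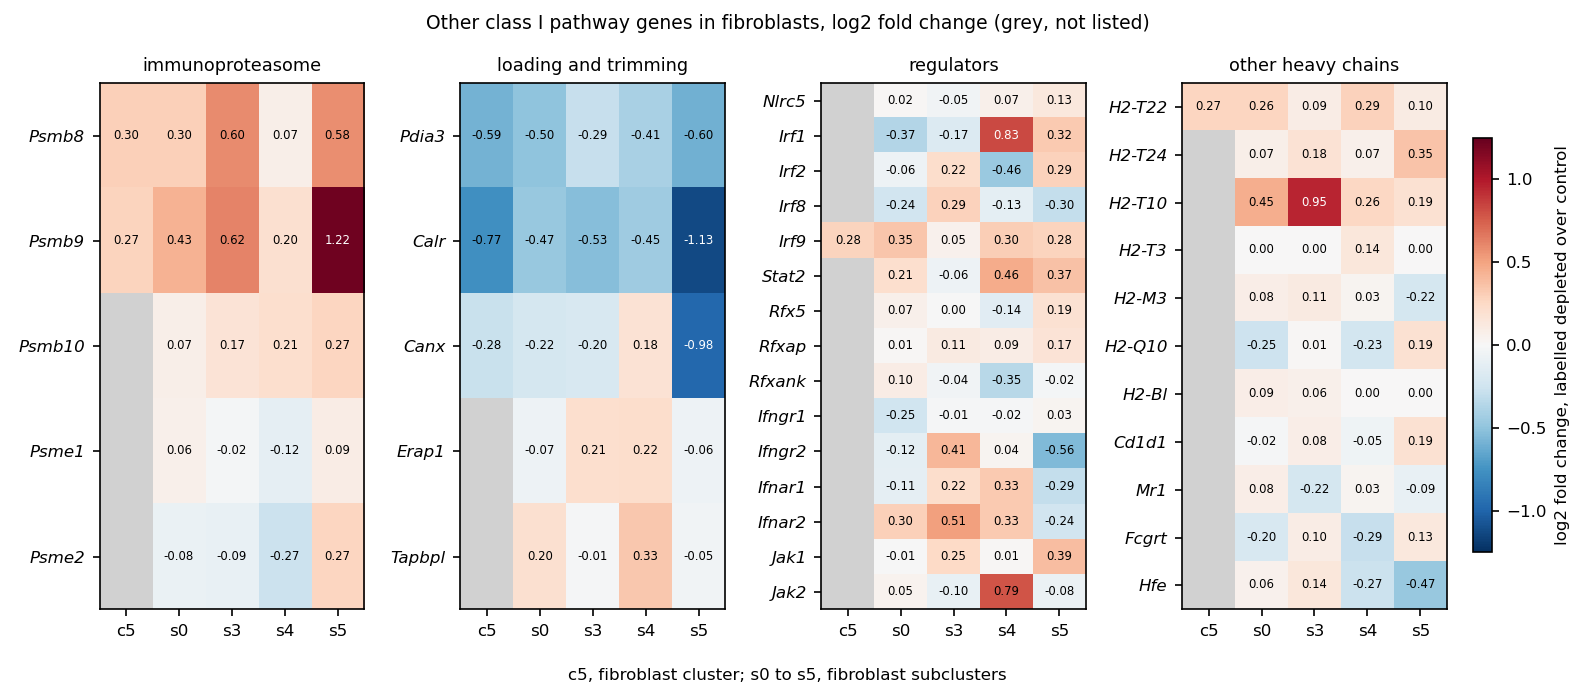
Log2 fold change (colour and printed value, labelled depleted over control) of the other class I pathway genes (rows, grouped by role) in the fibroblast cluster (c5) and subclusters 0, 3, 4 and 5 (s0 to s5), with grey where cluster 5 does not list the gene. Psmb8, Psmb9 and Irf9 are above 0 in every column, and Calr and Pdia3 are below 0 in every column.

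Outside fibroblasts the class I genes were listed 50 times in the 17 other clusters, 34 times higher and 16 times lower, and the direction differed between clusters. In the 5 macrophage clusters 17 of 18 listings were higher, and in the 2 neutrophil clusters 4 of 4. The NK cluster and the unnamed cluster 15 each had 4 of 4 higher. In the 6 T cell clusters 13 of 17 were lower. Clusters 6, 9 and 10, in which control cells were the minority, held 3, 2 and 5 of these. Clusters 4, 7 and 8 had 2, 1 and 0 lower and 0, 1 and 2 higher. Of all genes listed in the T cell clusters, 29.2% (cluster 7) to 68.2% (cluster 4) were higher. Dendritic cells had 2 of 3 lower, beside 41.4% of all genes listed there being higher. Cluster 2, the B cells, lists none of the 10 genes, and no cluster lists H2-Q7 or Tap2. The share of cells had the same direction in 18 of the 34 higher listings, was equal in 15 and was opposite in 1. It had the same direction in 13 of the 16 lower listings and was equal in 3. Equal shares came from genes counted in nearly all leukocytes, 18 of the 50 listings being at 100% in both libraries.

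**Figure D4:**
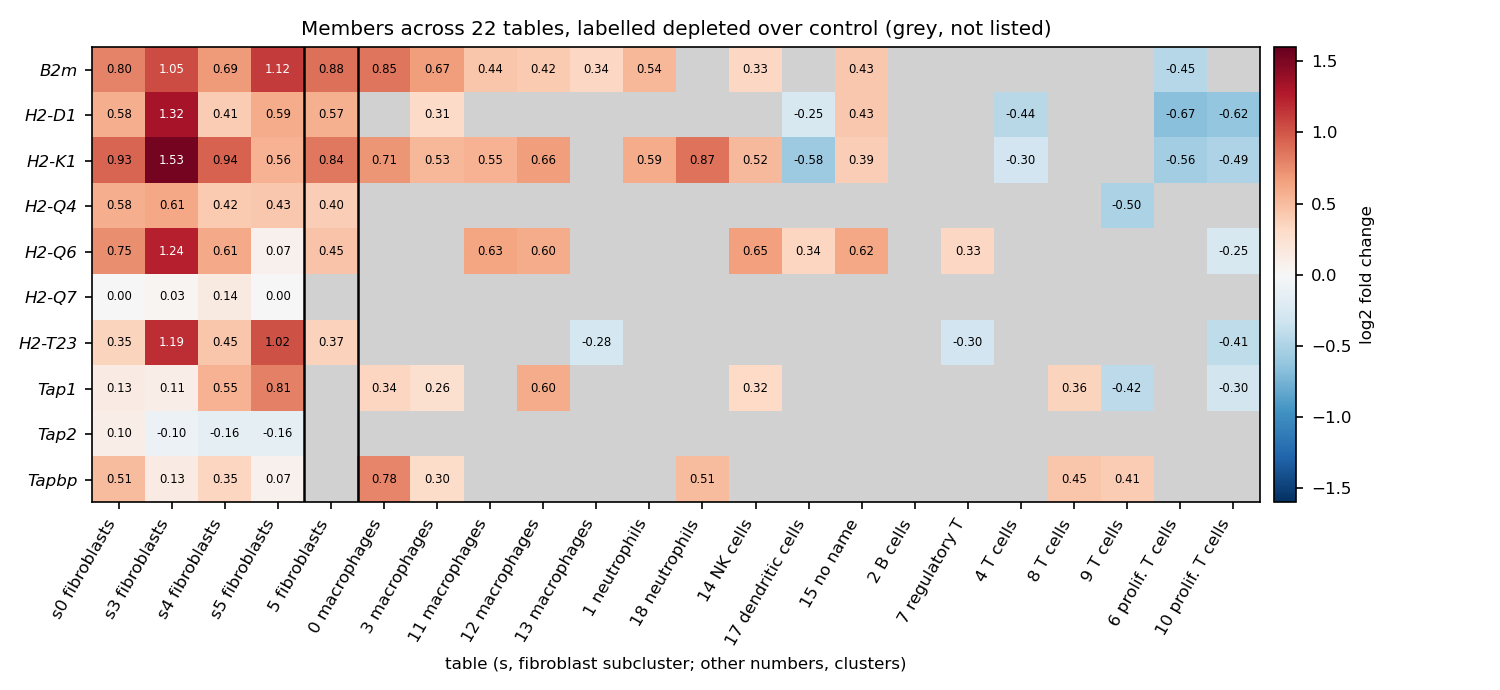
Log2 fold change (colour and printed value, labelled depleted over control) of the 10 class I genes (rows) in the 4 fibroblast subclusters, the fibroblast cluster and the 17 other clusters (columns), with grey where a table does not list the gene. All 6 values printed for the fibroblast cluster are above 0, as are those of B2m, H2-D1, H2-K1, H2-Q4, H2-Q6, H2-T23, Tap1 and Tapbp in its subclusters, and 13 of the 16 lower values elsewhere stand in the T cell columns, with -0.67 for H2-D1 in cluster 6 the lowest.

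In macrophages B2m and H2-K1 were the genes listed higher in the most clusters, 5 and 4 of 5. B2m was at 0.85, 0.67, 0.44, 0.42 and 0.34 in clusters 0, 3, 11, 12 and 13, with 100% of cells in both libraries. H2-K1 was at 0.71, 0.53, 0.55 and 0.66 in clusters 0, 3, 11 and 12, counted in 97.9% of labelled depleted cells of cluster 11 and in 100% otherwise. Both genes were therefore higher at or near a full share. Tap1 was at 0.34, 0.26 and 0.60 in clusters 0, 3 and 12, where its share went from 26.3% to 48.3%, from 46.5% to 62.1% and from 26% to 62%. Tapbp was at 0.78 and 0.30 in clusters 0 and 3 (61.7% to 89.6% and 71.3% to 79.6%). H2-Q6 was at 0.63 and 0.60 in clusters 11 and 12 (14.6% to 33.3% and 2.1% to 27.8%). H2-D1 was listed in cluster 3 alone of the macrophage clusters, at 0.31, and the single lower listing was H2-T23 in cluster 13, at -0.28 (90.5% to 85.9%). Of all genes listed in clusters 0, 3, 11, 12 and 13, the percent higher was 61.6, 60.4, 46.5, 46.9 and 59.1. In cluster 11 the macrophage markers Lyz2 (76.4% to 45.8%) and C1qb (46.5% to 18.8%) were lower and Flt3 of dendritic cells was higher (50% to 75%). In cluster 12 Ccr2 (86.5% to 48.1%, -1.26) and Lyz2 (99% to 100%, -1.11) were lower and Itgax was higher (45.8% to 46.8%, 0.36). The part of these markers in the class I values of clusters 11 and 12 was not tested.

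In neutrophils cluster 1 lists B2m at 0.54 and H2-K1 at 0.59, with B2m in 100% of cells and H2-K1 in 99.1% and 99.2%. Cluster 18 lists H2-K1 at 0.87 (45.5% to 76.5%) and Tapbp at 0.51 (27.3% to 52.9%). The percent higher among all listed genes was 58.7 in cluster 1 and 38.1 in cluster 18. NK cells (cluster 14) had B2m at 0.33, H2-K1 at 0.52, H2-Q6 at 0.65 (49.4% to 57.7%) and Tap1 at 0.32 (24.1% to 42.3%), beside 50.9% of listed genes higher. Cluster 15 had B2m at 0.43, H2-D1 at 0.43, H2-K1 at 0.39 and H2-Q6 at 0.62 (31.2% to 54.5%), beside 47.3%. None of these 4 clusters lists any of the 10 genes lower. Among the cell type markers listed in cluster 15, Cd8a (56.2% to 27.3%) was lower and Cd4 (34.4% to 63.6%) and Clec9a (40.6% to 63.6%) were higher. Their part in its class I values was not tested.

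T cells held most of the lower listings. Clusters 4, 6 and 10 list class I genes 10 times, all 10 lower, while 68.2%, 36.7% and 53.7% of their listed genes were higher. In cluster 4 H2-D1 was at -0.44 and H2-K1 at -0.30, with shares of at least 99.6%. In cluster 6, proliferating T cells, B2m was at -0.45 (96.3% to 91.5%), H2-D1 at -0.67 (51.9% to 49%) and H2-K1 at -0.56 (48.1% to 36.6%). Cluster 10, also proliferating T cells, had H2-D1 at -0.62 (81.8% to 69.4%), H2-K1 at -0.49 (63.6% to 54.3%), H2-T23 at -0.41 (81.8% to 49.5%), Tap1 at -0.30 (36.4% to 26.3%) and H2-Q6 at -0.25 (27.3% to 2.7%). Cluster 6 was thus the only cluster to list B2m lower. As the study describes them, clusters 6, 9 and 10 consist mainly of cells of the library labelled depleted, so control cells were the minority there.

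The remaining T cell clusters were mixed. Cluster 7, which the study names regulatory T cells, had H2-Q6 at 0.33 (37.4% to 58.5%) and H2-T23 at -0.30 (88.9% to 78%), beside 29.2% of listed genes higher. The NK cell genes Klrb1c (5.1% to 32.1%), Klre1 (14.1% to 30.8%) and Nkg7 (58.6% to 82.4%) were higher in the same cluster, and their part in its class I values was not tested. Cluster 8 had Tapbp at 0.45 (46.8% to 66.7%) and Tap1 at 0.36 (39.2% to 52.1%), both higher, beside 60.8%. Cluster 9 had Tapbp at 0.41 (29.4% to 48.7%) with H2-Q4 at -0.50 (58.8% to 29.1%) and Tap1 at -0.42 (64.7% to 34.4%), beside 36.3%. In dendritic cells (cluster 17) H2-K1 was at -0.58 and H2-D1 at -0.25, both in 100% of cells, and H2-Q6 was at 0.34 (15% to 27.3%), beside 41.4%. Genes of other cell types also differed in cluster 17. Col3a1 (35% to 0%), Mgp (25% to 9.1%) and Lyz2 (70% to 54.5%) were lower. The neutrophil genes S100a8 (1.17) and S100a9 (0.68) were higher, with lower shares. Their part in the class I values of cluster 17 was not tested.

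Some transcripts of other cell types were lower as well in clusters 6, 9 and 10, and a few were higher in clusters 9 and 10. In cluster 6 control cells held more Cd74 (37% to 21.4%, -3.03) and H2-Aa (33.3% to 12.7%, -2.57). In cluster 9 the fibroblast gene Col3a1 went from 41.2% to 16.9% and the cytotoxic gene Gzma from 82.4% to 58.2% (-1.64). In cluster 10 Csf1r, Lyz2 and Col3a1 went from 36.4% to 11.8%, from 54.5% to 28% and from 45.5% to 17.2%. In the other direction, Gzma was higher in cluster 10 (36.4% to 59.7%, 0.72) and the B cell gene Cd79b in cluster 9 (23.5% to 38.1%, 0.41). Lower shares of other cell types also stood in clusters with higher class I values, with Col3a1 at 41.5% and 26% in cluster 3, 26.6% and 11.5% in cluster 14, and 36.4% and 5.9% in cluster 18. Their part in the class I values was not tested. Without clusters 6, 9 and 10, which was chosen after seeing the data, the 16 lower listings became 6 and the 34 higher ones 33. Cluster 4 had smaller gaps of this kind, with Lyz2 at 93.4% and 80% and Cd74 at 91.2% and 76.1%.

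Fibroblasts were then set beside each cluster, gene by gene, over the 38 pairs of a gene and a cluster in which cluster 5 and the other cluster both list the gene. All these genes are ones that cluster 5 lists as higher, so in the 14 pairs of opposite direction its value is larger by construction. In the 24 pairs of the same direction the fibroblast value was the larger in 19. Tap1 and Tapbp, listed 12 times elsewhere and higher in 10, have no value in cluster 5 and enter no pair. The 5 exceptions were H2-Q6 in clusters 11, 12, 14 and 15 (0.63, 0.60, 0.65 and 0.62 beside 0.45) and H2-K1 in cluster 18 (0.87 beside 0.84). Whether any of these differences exceeds the spread between animals was not testable with 1 library per genotype.

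Over macrophage cluster 0 fibroblasts led by 0.03 for B2m and 0.13 for H2-K1. Those to neutrophil cluster 1 were 0.35 and 0.25 for the same genes, and those to cluster 3 ran from 0.21 to 0.32 over 3 genes. The widest gaps were to the clusters with the opposite direction, 1.01 to 1.15 in cluster 4 (2 genes), 1.24 to 1.40 in cluster 6 (3 genes), 0.70 to 1.33 in cluster 10 (4 genes) and up to 1.42 (H2-K1) in cluster 17. For the others, the fibroblast value minus the other ranged from 0.12 to 0.67 in cluster 7 (2 genes), was 0.90 in cluster 9 (1 gene), and ranged from 0.55 to 0.65 in cluster 13 (2 genes). It ranged from -0.17 to 0.44 in cluster 11, -0.15 to 0.46 in cluster 12 and -0.20 to 0.55 in cluster 14 (3 genes each), and from -0.17 to 0.46 in cluster 15 (4 genes). Clusters 2 and 8 share no listed class I gene with cluster 5, and cluster 18 shares H2-K1 alone. By gene, the value in fibroblasts was above all 9 other values of B2m, all 6 of H2-D1 and 11 of 12 of H2-K1. It was above 3 of 7 of H2-Q6, the single one of H2-Q4 and all 3 of H2-T23. In the same order, 1, 4, 4, 1, 1 and 3 of the other values were lower listings, which lie below by construction. For H2-Q4 and H2-T23 no other kind of value was listed. H2-Q4 and H2-T23 were listed higher in fibroblasts and in no other cluster.

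**Figure D5:**
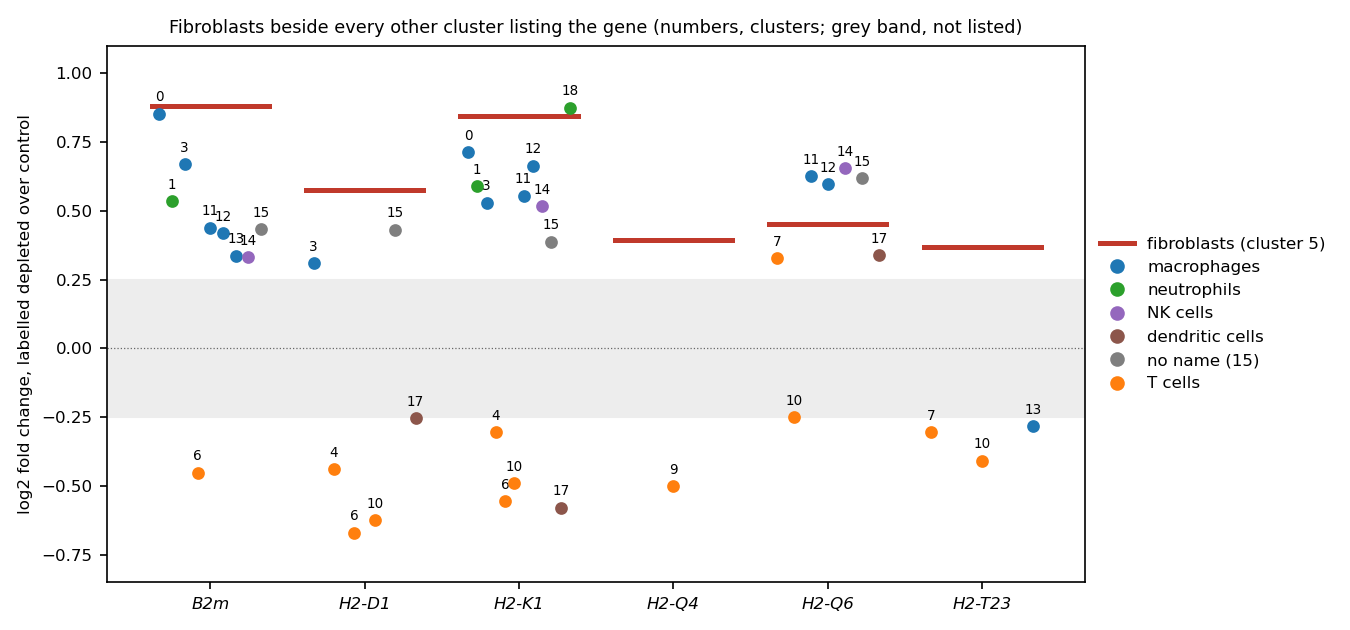
Log2 fold change (y axis, labelled depleted over control) of the 6 class I genes listed in fibroblasts (red bars) and in every other cluster that lists them (points, numbered by cluster and coloured by cell type). The grey band marks the range under 0.25 in size that the tables omit. Only H2-Q6 in clusters 11, 12, 14 and 15 and H2-K1 in cluster 18 stand above the red bar, and T cell points stand below 0 for all but H2-Q6 in cluster 7.

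The genes most like B2m were sought among those that share its direction in 8 or more of the 10 cluster tables listing it, a condition met by 11 genes. H2-K1 came closest, with the same direction in 9 of 9 tables that list both and a mean absolute difference of 0.12 in log2 fold change. It was followed by Ifitm3, an interferon-induced membrane protein (8 of 8 tables, 0.23), the pseudogene Rpl34-ps1 (8 of 9, 0.33), Ifi27l2a, another interferon-induced gene (8 of 8, 0.37), and Btg1 (8 of 9, 0.38). The remaining genes meeting the condition were St3gal4, Gm15682, Rpl27a-ps4, LOC118568312, Gm15501 and Ftl1-ps2, at mean absolute differences of 0.41 to 1.54. The likeness is described over at most 10 tables of the same 2 libraries, which are not independent.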

How the data were processed

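The study aligned reads with Cell Ranger 6.1.1 to GRCm39 plus reporter sequences, and filtered, normalized (SCTransform, regressing out the mitochondrial share) and clustered both libraries in Seurat. Low-quality clusters were removed, and no doublet caller is named. Cluster 5 was normalized again for the subclusters, so its levels were not compared with theirs. The deposited fraction of cells with a count (printed as a percent) and the log2 fold change, with a pseudocount of 1, were used as the authors gave them. Their p-values, computed over cells, were not used.

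Listings were counted by direction, and medians and shares were taken with pandas 2.3.3 in Python 3.11.15. The counting was tested on simulated data. Genes named by rule are all 10 members in every table, the genes of a wider pathway list that cluster 5 lists, and the 5 genes nearest to B2m. A further gene of that list is not reported here. Other pathway genes, class II genes, cell type markers and the remaining genes like B2m were chosen for naming after their values were seen. Members and lists were chosen with earlier results of these data known. Alternatives were a size limit of 0.5, share ratios, other summaries and leaving out H2-Q4, H2-Q6 and H2-Q7.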

Additional observations from a re-analysis of the deposited data

Results flagged for a closer look

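Each of the 6 class I genes listed in fibroblasts was listed in the opposite direction in at least 1 other cluster. The differences between clusters were not tested, since each genotype had 1 library. B2m was at -0.45 in cluster 6 (proliferating T cells) and 0.88 in fibroblasts. H2-D1 was opposite in 4 clusters, lowest in cluster 6 at -0.67, and at 0.57 in fibroblasts. H2-K1 was opposite in 4 clusters, lowest in cluster 17 (dendritic cells) at -0.58, and at 0.84 in fibroblasts. H2-Q4 was at -0.50 in cluster 9 (T cells) and 0.40 in fibroblasts. H2-Q6 was at -0.25 in cluster 10 (proliferating T cells), just past the listing limit, and 0.45 in fibroblasts. H2-T23 was opposite in 3 clusters, lowest in cluster 10 at -0.41, and at 0.37 in fibroblasts.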

How the results depend on the processing

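Over 15 results and 55 alternatives, 23 alternatives left the value as it was or a count within 1.5 times. Most results are counts, which have no sign that could turn. Only the subcluster medians and the B2m value could turn, and none of them changed sign. The median of subcluster 4 by the ratio of shares was 0. No paired analysis was possible because no genotype had a second library, and for the same reason no library could be left out. With a size limit of 0.5, the 6 genes higher in fibroblasts became 3, the 34 and 16 listings elsewhere 17 higher and 5 lower, the 8 other clusters with B2m higher became 3, the 4 other pathway genes higher in fibroblasts 0, and the 8 genes higher in subcluster 4 became 4. By the ratio of shares, 18 listings elsewhere were higher, 0 other clusters had B2m higher, B2m in fibroblasts was at 0.0088, subcluster 4 had 5 genes higher, and the medians were 0.084, 0.21, 0 and 0.17 in subclusters 0, 3, 4 and 5. Shares at their ceiling cannot differ. Those medians were 0.51, 1.05, 0.45 and 0.59 without H2-Q4, H2-Q6 and H2-Q7, 0.47, 0.71, 0.44 and 0.45 as means, 0.58, 1.05, 0.45 and 0.58 over genes in at least 25% of cells, and 0.53, 0.84, 0.40 and 0.51 after centring. The median of B2m over the subclusters was 0.92. Without clusters 6, 9 and 10, 6 listings were lower. The number of cells per cluster and library is not given, so only the coarseness of shares can be read, from the smallest share above 0. In clusters 6, 9, 17 and 18 it was 3.7%, 5.9%, 5% and 9.1% of control cells. In labelled depleted cells of these clusters it was 0.6%, 0.5%, 9.1% and 5.9%.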

Other observations

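Heavy chain genes outside the 10 went in both directions in T cells. H2-T10 was listed in 7 clusters (4, 6, 7, 8, 9, 10 and 15) and was higher in the library labelled depleted in all 7, at 0.33 to 1.27. In cluster 6 it was counted in 44.4% of control and 80.3% of labelled depleted cells, and in cluster 10 in 36.4% and 79%. H2-T3, which encodes the thymus leukemia antigen, was listed in clusters 6 and 10, at 0.83 (3.7% and 40.3%) and 0.94 (0% and 42.5%). H2-T24 was higher in all 5 clusters that list it, at 0.32 to 0.65, whereas H2-Q2 was lower in both that list it, at -0.26 in cluster 6 and -0.51 in cluster 10. H2-T22 was at 0.73 in cluster 6 (33.3% and 57.7%), 0.37 in cluster 10 (36.4% and 61.3%) and -0.35 in cluster 9 (47.1% and 24.9%), and outside T cells and fibroblasts it was lower in both clusters that list it, at -0.29 in cluster 14 (39.2% and 23.1%) and -0.32 in cluster 15 (75% and 72.7%). In fibroblast subclusters 0, 3, 4 and 5 H2-T10 was at 0.45, 0.95, 0.26 and 0.19. H2-T10 and H2-T22 are close copies, so counts of either are uncertain.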
